A study of Homo sapiens with 4 samples.

Results

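Small nucleolar RNA host genes were followed in 697 cells, a long-established human line of B-cell precursor leukaemia (labelled B-ALL cells), together with the small nucleolar RNA (snoRNA) genes that the same count table lists. Host genes were taken as all rows with a symbol of SNHG and a number, plus GAS5, ZFAS1 and DANCR. SnoRNA genes were taken as all rows with a symbol of SNORA or SNORD and a number. This gave 28 host genes and 160 snoRNA genes, 188 of the 28814 genes in the table. SNHG18, SNHG27 and SNHG28 are not analysed here. MZ1 cells received 1 µM MZ1 for 24 h and were sequenced as 2 libraries with 14544789 and 14246367 counted reads. DMSO cells received the same volume of the solvent for 24 h and were sequenced as 2 libraries with 16005427 and 16488005 counted reads. MZ1 joins a ligand of the BET bromodomain proteins to a ligand that recruits the ubiquitin ligase VHL, so that BET proteins are degraded. The labels do not say whether the 2 libraries of a group came from separate cultures, and the p-values therefore rest on a spread between libraries that may be technical. Levels are given in CPM, counts scaled to library size with TMM. No spike-in is named, and a level is therefore a fraction of its library and not an amount per cell.

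SnoRNAs guide chemical modification of ribosomal RNA. C/D snoRNAs direct ribose methylation, H/ACA snoRNAs direct pseudouridylation, and both work inside a particle of core proteins. In human cells most snoRNAs lie in introns of host genes, either protein-coding genes of the translation apparatus or long non-coding genes such as the SNHG family. After splicing the intron is debranched and trimmed by exonucleases until the core proteins stop them, while the joined exons leave as a separate RNA that for several hosts is degraded during translation by nonsense-mediated decay. A few snoRNAs, U3 among them, are transcribed from their own promoters. Some host transcripts start with a terminal oligopyrimidine (TOP) tract, as ribosomal protein mRNAs do. These libraries were made from total RNA with a kit in which polyadenylated RNA is usually selected. A mature snoRNA has no poly(A) tail, and reads assigned to an intronic snoRNA gene may come from unspliced or partly processed host RNA, so a count for a snoRNA gene is not a level of the mature snoRNA.

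All 9 B-cell precursor markers that were listed had reads in every library and were called lower with MZ1, with a summed level of 1052 and 1104 CPM in MZ1 libraries and 3759 and 3769 CPM in DMSO libraries. Of 5 T cell markers only TRAC had a row, at 0 and 0 counts in MZ1 libraries and 114 and 117 counts in DMSO libraries. Of 5 myeloid markers 4 had a row, 3 of them higher with MZ1, and their summed level was 21.1 and 17.2 CPM in MZ1 libraries and 6.35 and 5.31 CPM in DMSO libraries, with MPO at 0 counts in both DMSO libraries. Of 4 erythroid markers 3 had a row, at a summed level of 3.61 and 2.75 CPM in MZ1 libraries and 0.122 and 0.472 CPM in DMSO libraries, where HBA1 was at 0. The part of these marker shifts in the results below was not tested. In bulk RNA, fewer cells of a type and less RNA per cell cannot be told apart.

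The host genes did not move as 1 group. Of 27 host genes with enough counts to test, 9 were called higher and 13 lower with MZ1 (edgeR quasi-likelihood fit over 16862 genes, Benjamini-Hochberg adjusted p under 0.05). Across all tested genes 84.2% were called, 42.8% higher and 41.3% lower, so the 33.3% of host genes called higher and the 48.1% called lower lie near the background. Their median log2 fold change was -0.16, against 0.05 over all tested genes. As a description without a test, 74.6% of the 2417 other long non-coding RNA genes were called, 55.1% higher and 19.5% lower. Among the 122 of these whose mean log2 CPM reached 4, 90.2% were called, 61.5% higher and 28.7% lower, with a median of 0.82. The size of the changes was uneven. Of the called host genes 9 fell by at least 2-fold and 1, SNHG21, rose by at least 2-fold. The matching shares among all tested genes were not counted, so whether this unevenness is particular to host genes was not tested. With upper-quartile scaling, which shifted the median gene up by 0.271 on the log2 scale, 12 host genes were called higher and 10 lower, and the host median became 0.11. The MZ1 and DMSO libraries did not overlap for 24 of the 27 host genes (88.9%), against 91.3% of all tested genes.

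SNHG4 (ENSG00000281398, hg38 chr5:139274102-139284899, plus strand), a lincRNA gene that holds snoRNAs of the SNORA74 family, changed most. It stood at 5.45 and 6.5 CPM in MZ1 libraries, against 105 and 100.2 CPM in DMSO libraries, with a log2 fold change of -4.10 (SE 0.09, adjusted p in edgeR = 1.06e-22). Both MZ1 libraries lay far below both DMSO libraries, and it shares 16.6% of its exonic length with other genes, MATR3 among them. SNHG15 (chr7:44983023-44986961, minus strand) stood at 3.61 and 3.32 CPM in MZ1 libraries and 34.7 and 32.5 CPM in DMSO libraries, a log2 fold change of -3.27 (SE 0.14). DANCR (chr4:52712404-52720351, plus strand), which carries SNORA26 in an intron and is best known as an RNA that restrains differentiation, stood at 23.6 and 24.4 CPM in MZ1 libraries and 123 and 125 CPM in DMSO libraries. Its log2 fold change was -2.37 (SE 0.06, edgeR adjusted p = 3.83e-21). For these 3 genes the gap between the groups was many times the spread within either group.

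SNHG20 (chr17:77086716-77099902, plus strand) had 2.83 and 3.4 CPM in MZ1 libraries and 14.7 and 15.9 CPM in DMSO libraries, a log2 fold change of -2.30 (SE 0.18). SNHG16 (chr17:76557766-76565348, plus strand), host of SNORD1 genes, had 18.5 and 17.7 CPM in MZ1 libraries and 70.1 and 70.6 CPM in DMSO libraries, a log2 fold change of -1.96 (SE 0.08). SNHG3 (chr1:28505980-28510892, plus strand), which holds the SNORA73 pair, had 73.8 and 69.3 CPM in MZ1 libraries and 172 and 169.6 CPM in DMSO libraries, a log2 fold change of -1.25 (SE 0.05). All 3 fell without overlap between the groups. SNHG8 stood at 44.1 and 45.8 CPM in MZ1 libraries and 63.2 and 64.7 CPM in DMSO libraries, and fell by 0.51 on the log2 scale. SNHG1, which holds 7 annotated snoRNA genes, stood at 118 and 122 CPM in MZ1 libraries and 152 and 146 CPM in DMSO libraries, a log2 fold change of -0.31. The SNHG1 call was lost with upper-quartile scaling, where the log2 fold change was -0.04. The other 5 host genes called lower were SNHG25, SNHG12, SNHG17, SNHG11 and SNHG26, with log2 fold changes between -1.90 and -0.45.

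The 4 host genes with the highest CPM, GAS5, SNHG29, SNHG6 and SNHG7, all rose. GAS5 (chr1:173863900-173868882, minus strand), a growth-arrest RNA known to hold many intronic C/D snoRNAs, had 502 and 540.5 CPM in MZ1 libraries, against 445 and 467 CPM in DMSO libraries. GAS5 had 0 annotated snoRNA genes in the pairing used here and therefore enters no comparison with snoRNA genes below. Its log2 fold change was 0.19 (SE 0.04, edgeR adjusted p = 0.00021), and without a count filter the call was lost (0.12, edgeR adjusted p = 0.101). SNHG29 (chr17:16438822-16478678, plus strand) had 494 and 479.9 CPM in MZ1 libraries and 351 and 359 CPM in DMSO libraries, a log2 fold change of 0.46 (SE 0.04). GAS5 and SNHG29 together made up 45.0% and 46.0% of the host gene counts in MZ1 libraries and 35.4% and 36.4% in DMSO libraries.

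SNHG6 (chr8:66921684-66926398, minus strand) had 332 and 337 CPM in MZ1 libraries and 181 and 177 CPM in DMSO libraries, a log2 fold change of 0.90 (SE 0.04, adjusted p in edgeR = 5.06e-16). It shares 36.4% of its exonic length with other genes. SNHG7 had 184 and 179.6 CPM in MZ1 libraries and 133 and 143 CPM in DMSO libraries, a log2 fold change of 0.40. SNHG5 (chr6:85660950-85678748, minus strand), host of SNORD50 genes, had 52.6 and 50.1 CPM in MZ1 libraries and 33.3 and 32.6 CPM in DMSO libraries, a log2 fold change of 0.64 (SE 0.08). These rises were smaller than the falls of SNHG4, SNHG15 and DANCR, yet larger than the spread within groups. SNHG32 had 82.0 and 82.5 CPM in MZ1 libraries and 69.7 and 67.0 CPM in DMSO libraries, a log2 fold change of 0.27. SNHG14 (chr15:24978583-25419462, plus strand), the long imprinted transcript that carries the SNORD115 and SNORD116 clusters, had 80.8 and 69.9 CPM in MZ1 libraries and 58.0 and 54.0 CPM in DMSO libraries, a log2 fold change of 0.43 (SE 0.07). SNHG21 (chr15:82750564-82757206, plus strand) had 7.21 and 5.28 CPM in MZ1 libraries and 2.81 and 2.42 CPM in DMSO libraries, a log2 fold change of 1.26. As it shares 72.9% of its exonic length with other genes and the strand setting of the counting is not given, reads of SNHG21 and its partners cannot be told apart. SNHG19, with a log2 fold change of 0.27, was the other host gene called higher.

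ZFAS1 (chr20:49278178-49295738, plus strand), host of the SNORD12 genes, was not called, with 54.9 and 53.1 CPM in MZ1 libraries and 53.0 and 47.9 CPM in DMSO libraries (log2 fold change 0.10, SE 0.07, edgeR adjusted p = 0.197). It was called higher with upper-quartile scaling (0.37), and it shares 46.9% of its exonic length with other genes. SNHG9, SNHG10, SNHG30 and SNHG31 were also not called, with log2 fold changes between -0.16 and 0.33. SNHG22 was too low to test, at 12 and 7 counts in MZ1 libraries and 6 and 3 counts in DMSO libraries. Summed over all 28 host genes, the share of unscaled library totals was 0.215% ± 0.00045 in MZ1 libraries and 0.232% ± 0.00227 in DMSO libraries (SD, n = 2 each). The exact two-sided permutation p was 0.333, the smallest that 2 libraries against 2 can give. The log2 ratio of this share was -0.105. With TMM scaling the sums were 2212 and 2221 CPM in MZ1 libraries and 2249 and 2269 CPM in DMSO libraries, a log2 ratio of -0.027, so the size of the fall depends on the scaling.

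**Figure D1:**
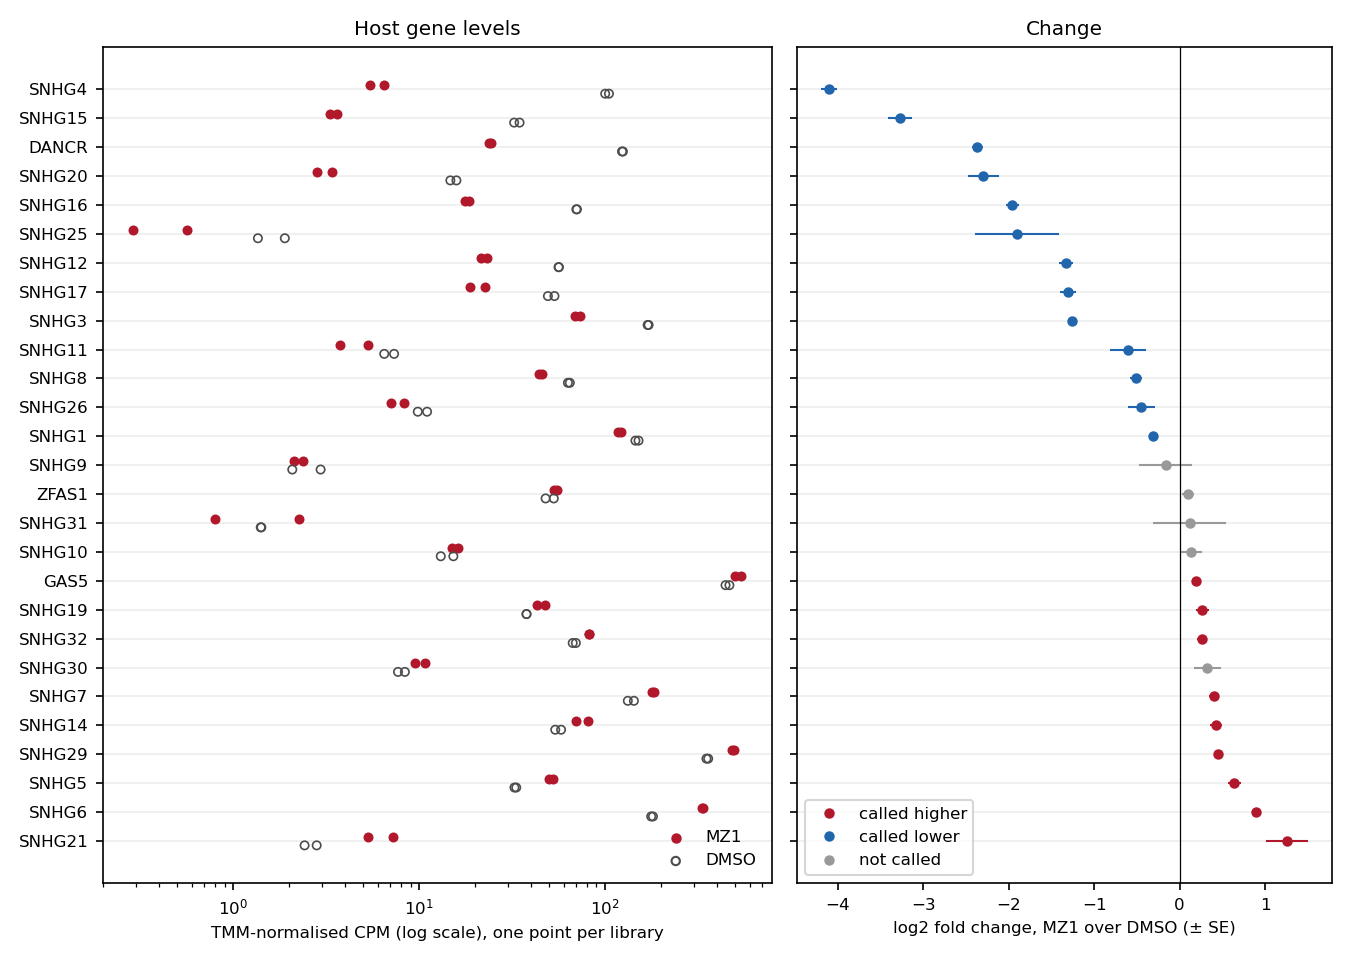
Levels and changes of the 27 tested host genes, sorted by change. The left panel plots TMM-normalised CPM on a log axis with 1 point per library, MZ1 filled and DMSO open. The right panel plots the log2 fold change, MZ1 over DMSO, with bars of 1 SE. SNHG4, at -4.10, lies at the top and SNHG21, at 1.26, at the bottom, while GAS5 and SNHG29 sit farthest right in the level panel.

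Per kilobase of annotated exon the order of levels was different from that in CPM. In MZ1 libraries SNHG6 averaged 268 CPM per kb, GAS5 144, SNHG19 133, SNHG29 129.6, SNHG8 48.7 and SNHG32 45.7. In DMSO libraries SNHG6 averaged 144 CPM per kb, GAS5 126, SNHG19 111, SNHG29 94.5, SNHG8 69.2 and DANCR 54.3. SNHG19, a short gene of 342 exonic bases, thus stood beside GAS5 on this scale. SNHG4 averaged 1.34 CPM per kb in MZ1 libraries and 23.0 CPM per kb in DMSO libraries.

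The start of the host transcripts was read for the TOP tract, since several hosts are known as TOP RNAs. A run was counted when the first transcribed base in RefSeq (GRCh38.p14) was C and at least 5 bases in a row were C or T on the strand of the gene. Such a run was found in 6 of the 24 host genes with an entry (25%), in 4.04% of all 27305 promoters, in 5.25% of 11076 promoters of tested genes and in 65.5% of 58 ribosomal protein genes tested. The 6 were SNHG4 (13 bases), SNHG12 (11), SNHG19 (6), SNHG32 (6), ZFAS1 (5) and SNHG5 (5). SNHG15, SNHG25, SNHG9 and SNHG6 were not matched. The windows below show 10 bases before the start and 30 from it, with the run in capitals, for hosts with a run and for 2 hosts without one that fell with MZ1. The first 5 are shown because each has a run, of differing length, while their changes differ.
SNHG4 (chr5:139274091-139274130, plus strand): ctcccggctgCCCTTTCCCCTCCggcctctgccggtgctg
SNHG12 (chr1:28581844-28581883, minus strand): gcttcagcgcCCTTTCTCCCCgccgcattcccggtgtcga
SNHG32 (chr6:31834906-31834945, plus strand): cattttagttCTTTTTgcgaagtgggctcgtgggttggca
SNHG5 (chr6:85678704-85678743, minus strand): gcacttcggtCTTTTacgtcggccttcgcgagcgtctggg
ZFAS1 (chr20:49278632-49278671, plus strand): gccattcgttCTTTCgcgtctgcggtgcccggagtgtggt
DANCR (chr4:52712384-52712423, plus strand): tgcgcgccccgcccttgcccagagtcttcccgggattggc
SNHG16 (chr17:76557754-76557793, plus strand): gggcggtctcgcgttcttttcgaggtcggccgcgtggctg

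The 6 host genes with a run had log2 fold changes of -4.10 (SNHG4), -1.33 (SNHG12), 0.10 (ZFAS1), 0.27 (SNHG19), 0.27 (SNHG32) and 0.64 (SNHG5). A run of at least 5 bases was therefore found beside falls, rises and no call. The longest runs, 13 bases in SNHG4 and 11 in SNHG12, were in the hosts that fell. Runs in the others were 5 or 6 bases, and whether run length bears on the change was not tested. RefSeq and GENCODE place some starts apart, by 1259 bases for SNHG12, 464 bases for ZFAS1 and 308 bases for SNHG32. Among hosts without a counted run the starts lay 163 bases apart for GAS5, 165 for SNHG29, 1927 for SNHG20 and 154975 for SNHG14. The run was read at the RefSeq start alone, so a run at another start would have been missed, and the 25% depends on this choice. Of 16 TOP mRNAs outside the ribosomal proteins, 11 were called higher and 5 lower (median log2 fold change 0.28), beside 42.8% and 41.3% of all tested genes, and with upper-quartile scaling 12 were higher and 3 lower. EEF1D, a subunit of the elongation factor that reloads EEF1A with GTP, had 879.6 and 831 CPM in MZ1 libraries and 248 and 258 CPM in DMSO libraries, a log2 fold change of 1.76. HNRNPA1, a splicing regulator, had 624 and 647 CPM in MZ1 libraries and 2538 and 2499 CPM in DMSO libraries, a log2 fold change of -1.99. The E-box CACGTG is the same on both strands and is a motif that MYC can bind. It lay within 250 bases before to 50 after the start in 2 of 24 host genes (8.33%), SNHG7 and SNHG30. The share was 7.43% of all promoters and 9.95% of promoters of tested genes. MYC itself was at 6.08 and 5.57 CPM in MZ1 libraries and 495 and 522 CPM in DMSO libraries.

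The snoRNA genes were counted at far lower depth. Over the 4 libraries the median row had 11 counts, 70 of 160 rows had fewer than 10 and 6 had at least 100. The 160 rows comprised 78 C/D and 82 H/ACA genes by name, and 41 passed the count filter. The sequences in GENCODE release 29 coordinates matched the names in part. TGATGA, the C box, stood within the first 30 bases of 62.82% of C/D genes and 1.22% of H/ACA genes. ACA lay within the last 6 bases of 91.46% of H/ACA genes and 12.82% of C/D genes. Of the 41 tested rows 11 were called higher and 17 lower (68.3% in all, 26.8% higher and 41.5% lower, edgeR as above), against 42.8% and 41.3% of all tested genes. The groups did not overlap for 87.8% of the tested rows. At this depth the count filter, about 10 counts in 2 libraries, shaped these calls. Of the 41 rows 11 passed it through the MZ1 libraries alone, and these hold 10 of the 11 higher calls. A further 19 passed through the DMSO libraries alone, and these hold 15 of the 17 lower calls. Passing through 1 group alone favoured rows that differ but did not require a difference. SNORA65 passed through the DMSO libraries alone, with 12 and 6 counts in MZ1 libraries and 12 and 20 counts in DMSO libraries. Because rows that differ were favoured, directions by kind of host are read below from sums over all rows and not from counts of tested rows. Over all 160 rows the 2 MZ1 libraries both lay above the DMSO libraries in 52, below them in 51, and the groups overlapped in 57. The snoRNA genes thus had no common direction. Grouped by the gene around them, however, their summed counts differed in direction.

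SnoRNA genes inside the SNHG genes, ZFAS1 and DANCR had fewer summed counts with MZ1, apart from those in SNHG14. Of the 15 rows outside SNHG14, 13 had both MZ1 libraries below both DMSO libraries, SNORA26 in DANCR overlapped, and SNORA60 in SNHG11 lay above, with 1 and 4 counts in MZ1 libraries and 1 and 1 in DMSO libraries. These 15 rows summed to 64 and 66 counts in MZ1 libraries and 410 and 477 counts in DMSO libraries, 5.73-fold lower (exact 95% interval 4.76 to 6.94, scaled for library size). The 8 of them that were too sparse to test summed to 12 and 14 counts in MZ1 libraries and 49 and 49 counts in DMSO libraries, 3.16-fold lower. With SNHG14 included the 33 rows had a log2 ratio of -1.81, and -0.72 without the 3 rows with most counts. The 18 rows inside SNHG14, all too sparse to test one by one, summed to 46 and 42 counts in MZ1 libraries and 13 and 11 counts in DMSO libraries, 4.37-fold higher (2.75 to 7.17). These intervals treat reads as independent counts and leave out the spread between libraries. Reads that carry no molecular identifier are not independent molecules, so the intervals may be too narrow. For each sum the exact two-sided permutation p over libraries was 0.333, the smallest possible. Copies within the SNORD115 and SNORD116 clusters are near-identical, so reads may have been split or lost among them.

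SNORA73B, an H/ACA RNA of SNHG3 linked to early ribosomal RNA processing, had 5 and 4 counts in MZ1 libraries and 95 and 117 counts in DMSO libraries, 19.8-fold lower (10.2 to 43.8). SNORD104, a C/D RNA of SNHG25, had 16 and 22 counts in MZ1 libraries and 108 and 161 counts in DMSO libraries, 5.94-fold lower (4.22 to 8.58). SNORA71C, in SNHG17, had 2 and 2 counts in MZ1 libraries and 54 and 48 counts in DMSO libraries, 21.4-fold lower (8.11 to 80.1). Its neighbours in the same host were also called lower, SNORA71A with 5 and 7 counts in MZ1 libraries and 23 and 26 counts in DMSO libraries, and SNORA71B with 15 and 12 counts in MZ1 libraries and 29 and 31 counts in DMSO libraries. The SNORA71B call (log2 fold change -0.89, edgeR adjusted p = 0.0387) was lost under 7 of 12 alternatives. In ZFAS1, SNORD12B had 6 and 2 counts in MZ1 libraries and 34 and 24 counts in DMSO libraries, and SNORD12C had 3 and 3 counts in MZ1 libraries and 18 and 21 counts in DMSO libraries. The groups did not overlap for any of these 7 snoRNA genes, which were all the tested rows inside host genes of the SNHG, ZFAS1 and DANCR set. The groups also did not overlap for 91.3% of all tested genes and 87.8% of tested snoRNA rows, so this is near the background. SNORD104 and SNORA71B passed the count filter in both groups and the other 5 through the DMSO libraries alone.

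The sequences of these RNAs are shown because the paired family members bear on how well their reads can be kept apart. In the C/D RNAs the capitals mark TGATGA and CTGA, the C and D boxes, and in the H/ACA RNAs the ACA near the 3' end. SNORA71A and SNORA71C were identical at 83.09% of aligned positions and SNORD12B and SNORD12C at 74.19%.
SNORA73B (chr1:28508559-28508762, plus strand): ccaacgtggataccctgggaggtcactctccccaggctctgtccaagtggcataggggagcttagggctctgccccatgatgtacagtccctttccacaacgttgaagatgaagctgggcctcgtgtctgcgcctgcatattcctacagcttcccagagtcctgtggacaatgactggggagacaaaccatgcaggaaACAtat
SNORA71A (chr20:38427309-38427442, minus strand): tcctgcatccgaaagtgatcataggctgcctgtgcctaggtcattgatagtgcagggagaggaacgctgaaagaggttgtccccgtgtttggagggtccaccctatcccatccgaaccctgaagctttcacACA
SNORA71C (chr20:38429670-38429803, minus strand): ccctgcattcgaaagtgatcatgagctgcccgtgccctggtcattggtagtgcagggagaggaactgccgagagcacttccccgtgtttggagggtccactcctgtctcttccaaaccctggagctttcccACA
SNORD104 (chr17:64146083-64146152, plus strand): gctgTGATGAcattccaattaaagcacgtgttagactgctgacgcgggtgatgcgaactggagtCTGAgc
SNORD12B (chr20:49280319-49280409, plus strand): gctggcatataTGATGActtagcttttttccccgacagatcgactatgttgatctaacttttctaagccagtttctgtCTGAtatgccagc
SNORD12C (chr20:49278940-49279028, plus strand): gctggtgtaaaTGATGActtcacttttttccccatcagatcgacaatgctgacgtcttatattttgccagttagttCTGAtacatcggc

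Lower in the same hosts stood several rows too sparse to test. SNORD99, in SNHG12, had 0 and 2 counts in MZ1 libraries and 10 and 13 counts in DMSO libraries, a ratio of 9.66-fold lower with an interval of 2.39 to 84.5. SNORA74A, in SNHG4, had 0 and 0 counts in MZ1 libraries and 7 and 4 counts in DMSO libraries, at least 3.08-fold lower against a floor of 3 counts over the MZ1 group. SNORD93, in SNHG26, had 2 and 3 counts in MZ1 libraries and 11 and 8 counts in DMSO libraries. SNORA26, in DANCR, did not follow its host, with 7 and 3 counts in MZ1 libraries and 6 and 12 counts in DMSO libraries. Its groups overlapped, and at this depth no difference was detectable.

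**Figure D2:**
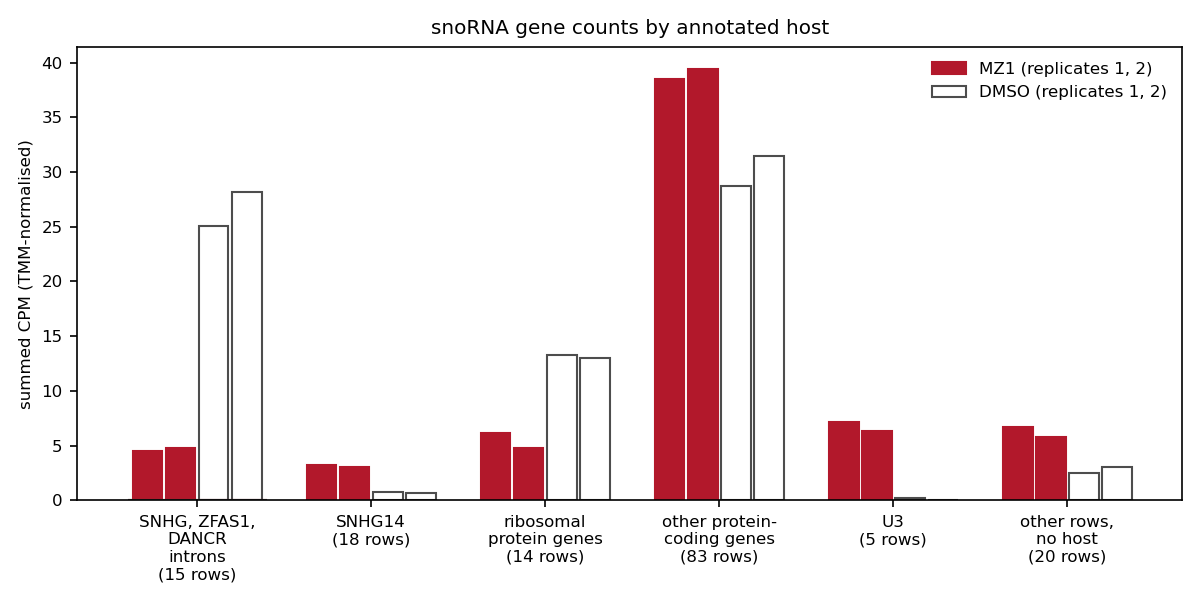
Summed TMM-normalised CPM of snoRNA genes by the annotated gene that contains them, with 1 bar per library, MZ1 filled and DMSO open. The 15 rows inside SNHG genes other than SNHG14, ZFAS1 and DANCR and the 14 rows inside ribosomal protein genes are lower with MZ1. The rows inside SNHG14, the U3 rows and the other rows without a same-strand host are higher. The 5 rows in genes of other types are not drawn.

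Ribosomal protein genes that hold a snoRNA gene were mostly higher with MZ1, while the snoRNA genes inside them had fewer summed counts. Of 28 such genes, 27 were called higher with MZ1 and 1, RPL17, lower (median log2 fold change 0.67), beside 38.5% and 48.8% of all protein-coding genes. The 14 snoRNA rows inside such genes summed to 87 and 66 counts in MZ1 libraries and 217 and 220 counts in DMSO libraries, 2.4-fold lower (1.99 to 2.90). Over the 14 rows the MZ1 libraries both lay below the DMSO libraries in 8 and above them in none, and the groups overlapped in 6. All 6 calls, each of them lower, were of rows that passed the count filter through the DMSO libraries alone, and these calls are no separate support for a direction. The row that passed in both groups, SNORA33 in RPS12, was not called, with 15 and 13 counts in MZ1 libraries and 25 and 28 counts in DMSO libraries (log2 fold change -0.66). SNORD83A, in RPL3, had 6 and 5 counts in MZ1 libraries and 31 and 28 counts in DMSO libraries, while RPL3 itself stood at 4717 and 4746 CPM in MZ1 libraries and 2899 and 2881 CPM in DMSO libraries. SNORD101, in RPS12, had 6 and 5 counts in MZ1 libraries and 33 and 22 counts in DMSO libraries, while RPS12 stood at 1607 and 1657 CPM in MZ1 libraries and 1018 and 1003 CPM in DMSO libraries. SNORD15B, in RPS3, had 0 and 2 counts in MZ1 libraries and 11 and 18 counts in DMSO libraries, 12.2-fold lower (3.08 to 105). RPS3 had a log2 fold change of 0.80.

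SnoRNA genes inside other protein-coding genes were mixed. The 83 rows summed to 545 and 546 counts in MZ1 libraries and 471 and 534 counts in DMSO libraries, 1.29-fold higher (1.19 to 1.41). This sum rests on few rows and on the scaling, as its log2 ratio of 0.37 was 0.11 without the 3 rows with most counts and 0.64 with upper-quartile scaling. The 65 rows too sparse to test summed to 130 and 159 counts in MZ1 libraries and 165 and 181 counts in DMSO libraries, a ratio of 0.997. Of 18 rows tested, 6 were called higher, 5 of them tested through the MZ1 libraries alone, and 4 lower, all tested through the DMSO libraries alone. Across all tested genes 42.8% were called higher and 41.3% lower. SNORD17, in SNX5, the row with most counts, had 105 and 94 counts in MZ1 libraries and 56 and 77 counts in DMSO libraries (log2 fold change 0.83), and the SNX5 change was close to it, at 0.99. The SNORD17 call was lost with DESeq2 (adjusted p = 0.051). SNORD117, in DDX39B, a helicase of mRNA export, had 28 and 31 counts in MZ1 libraries and 7 and 15 counts in DMSO libraries, with a log2 fold change of 1.67, the same as that of DDX39B. SNORD94, a C/D RNA in PTCD3, stood apart from its host. It had 70 and 54 counts in MZ1 libraries and 8 and 15 counts in DMSO libraries (log2 fold change 2.67, SE 0.36), against -0.18 for PTCD3. SNORA14B, in TOMM20, had 24 and 29 counts in MZ1 libraries and 7 and 3 counts in DMSO libraries, a log2 fold change of 2.63, against -1.0 for TOMM20. SNORA55, in PABPC4, fell short of a call, with a log2 fold change of -0.58. SNORD62B, with 34 and 35 counts in MZ1 libraries and 27 and 50 counts in DMSO libraries, was not called and its groups overlapped.
SNORD94 (chr2:86135870-86136006, plus strand): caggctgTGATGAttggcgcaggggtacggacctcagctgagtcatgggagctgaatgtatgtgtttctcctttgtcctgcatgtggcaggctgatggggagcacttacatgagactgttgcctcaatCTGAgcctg
SNORD94 is shown as the called intronic row with the largest rise.

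SnoRNA genes without a host had more summed counts with MZ1. A host here is a gene on the same strand that contains the row, so these rows may lie inside a gene on the opposite strand. The strand setting of the counting is not given, and whether reads of opposite-strand genes entered these sums was not tested. The 5 called rows, all higher, were tested through their MZ1 counts alone, so the direction is read from the sums. The 25 rows summed to 195 and 167 counts in MZ1 libraries and 45 and 52 counts in DMSO libraries, 4.45-fold higher (3.54 to 5.62), and without the 3 rows with most counts the log2 ratio was 1.23 in place of 2.15. The 19 rows too sparse to test summed to 55 and 35 counts in MZ1 libraries and 19 and 32 counts in DMSO libraries, 2.11-fold higher. Among the 25 rows, 5 were of U3, the C/D RNA that acts in cleavage of the ribosomal RNA precursor. These 5 held 101 and 87 counts in MZ1 libraries and 4 and 0 counts in DMSO libraries. Their ratio was 56.0-fold, with an interval of 21.5 to 208. SNORD3A had 38 and 29 counts in MZ1 libraries and 2 and 0 in DMSO libraries, a 39.9-fold ratio with an interval of 10.6 to 336. SNORD3B-1 had 40 and 34 counts in MZ1 libraries and 2 and 0 in DMSO libraries, a 44.1-fold ratio with an interval of 11.8 to 371. SNORD3C had 14 and 19 counts in MZ1 libraries and 0 and 0 in DMSO libraries, at least 13.1-fold higher against a floor of 3 counts over the DMSO group. The MZ1 libraries lay above the DMSO libraries for all 5 U3 rows. The U3 copies are near-identical, so how reads were shared among them is uncertain. The annotated exons of SNORD3A, SNORD3B-1 and SNORD3C span 699, 758 and 581 bases, against 217 bases for the shortest SNORD3A transcript. Reads of these rows may therefore lie outside the U3 RNA. The 20 other rows without a host were 2.23-fold higher (1.72 to 2.90), and include a row named SNORA74 by its Rfam family alone (chr12:42347061-42347214, minus strand), at 14 and 13 counts in MZ1 libraries and 0 and 0 in DMSO libraries, at least 10.7-fold higher.
SNORD3A (shortest annotated transcript of the gene at chr17:19188016-19188714, plus strand): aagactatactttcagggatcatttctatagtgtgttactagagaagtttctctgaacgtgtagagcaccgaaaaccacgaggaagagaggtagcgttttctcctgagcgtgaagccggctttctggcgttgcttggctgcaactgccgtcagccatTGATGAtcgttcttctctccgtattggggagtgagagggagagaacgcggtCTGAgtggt
In U3, unlike in the intronic C/D RNAs above, the TGATGA in capitals stood late in the RNA, at base 158 of 217.

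**Figure D3:**
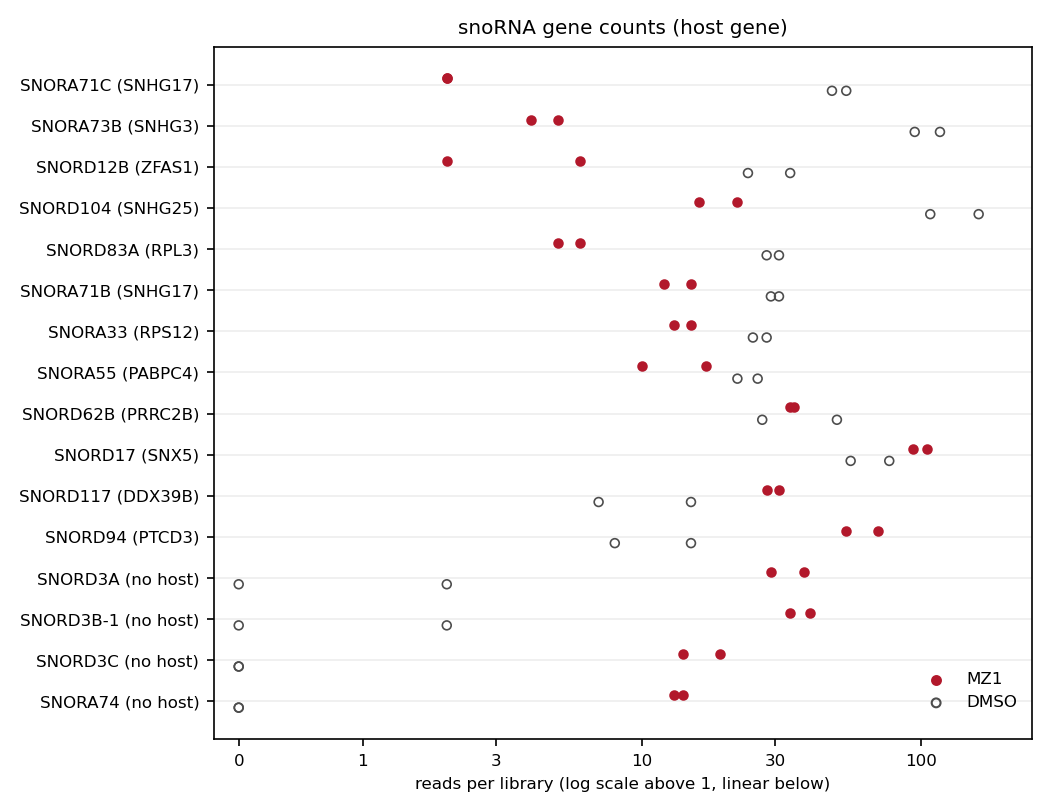
Reads per library for the 16 snoRNA genes named by the fixed rule, with the annotated host gene in brackets. Filled points are MZ1 and open points DMSO, on an axis that is logarithmic above 1 read. SNORA71C, SNORA73B, SNORD12B and SNORD104 lie at the top, lower with MZ1, and the U3 rows and SNORA74 at the bottom, higher with MZ1.

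Each tested snoRNA gene with a tested host was then set beside that host, giving 35 pairs in 26 hosts. The difference of the log2 fold changes, snoRNA gene minus host, does not depend on the scaling of libraries. Its median was -0.58 over these pairs, ranging between -4.26 and 3.63. The median was -0.002 over 135 pairs when no count filter was used, and -0.38 without DMSO replicate 1 and -0.31 without DMSO replicate 2. Pairs within 1 host share its value and are not independent. Since most of these snoRNA rows passed the filter through 1 group alone, the pairs are described one by one and no median by kind of host is given. First come pairs with an SNHG gene or ZFAS1 as host. SNORA73B changed by -4.27 against -1.25 for SNHG3, a difference of -3.02. SNORA71C changed by -4.34 against -1.31 for SNHG17, while SNORA71A (-1.76) and SNORA71B (-0.89) lay closer to it. SNORD12B (-2.57) and SNORD12C (-2.40) fell in ZFAS1, whose own log2 fold change was 0.10. SNORD104 changed by -2.56 against -1.90 for SNHG25, and its counts exceeded those of the host in every library. SNHG25 shares 48.6% of its exonic length with other genes.

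Of the 10 pairs with a ribosomal protein gene as host, 8 were tested through the DMSO counts of the snoRNA gene alone. The snoRNA gene was called lower and the host higher in 6 of these 8. The filter favoured snoRNA rows higher in DMSO libraries, and 27 of 28 ribosomal protein genes that hold a snoRNA gene were higher. This count is therefore no support for a direction. Among the 6 were SNORD15B in RPS3 (difference -4.26), SNORD83A in RPL3 (-2.86), SNORD101 in RPS12 (-2.74), SNORD14A in RPS13 (-2.33) and SNORD100 in RPS12 (-1.69). In the 18 pairs with another protein-coding host, 4 snoRNA genes, each tested through its MZ1 counts alone, were called higher with the host lower: SNORA14B in TOMM20 (3.63), SNORD94 in PTCD3 (2.85), SNORA72 in NUCKS1 (2.31) and SNORD59A in ATP5F1B (1.90). The filter favoured rows higher with MZ1 here, so this count too is no support for a direction. The 3 snoRNA genes of GNL3, a nucleolar GTPase gene whose own log2 fold change was -2.0, passed the filter in both groups and were not called, with differences of 1.79, 2.21 and 2.60.

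The same was read per host as snoRNA reads per 1000 host reads, for the 11 SNHG, ZFAS1 and DANCR host genes with a snoRNA row. The ratio was lower in both MZ1 libraries than in both DMSO libraries in 5 hosts (SNHG3, ZFAS1, SNHG17, SNHG12 and SNHG26), higher in 3 (SNHG14, DANCR and SNHG11) and overlapping in 3. SNHG3 had 4.79 and 4.17 snoRNA reads per 1000 host reads in MZ1 libraries and 33.8 and 40.7 in DMSO libraries. ZFAS1 had 11.6 and 6.81 in MZ1 libraries and 59.9 and 55.4 in DMSO libraries, and SNHG17 had 71.9 and 80.5 in MZ1 libraries and 139 and 118 in DMSO libraries. SNHG14 had 40.3 and 43.4 in MZ1 libraries and 13.7 and 12 in DMSO libraries. DANCR had 21.0 and 8.88 in MZ1 libraries and 2.97 and 5.67 in DMSO libraries. SNHG11 had 13.3 and 76.9 in MZ1 libraries and 8.33 and 9.09 in DMSO libraries, on the few reads of SNORA60 given above. The exact two-sided permutation p was 0.333 for each of the hosts without overlap, the smallest possible. For SNHG4, the host that fell most, the ratio was 0 and 22.2 in MZ1 libraries and 6.98 and 4.71 in DMSO libraries, on 2 and 20 snoRNA reads per group.

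**Figure D4:**
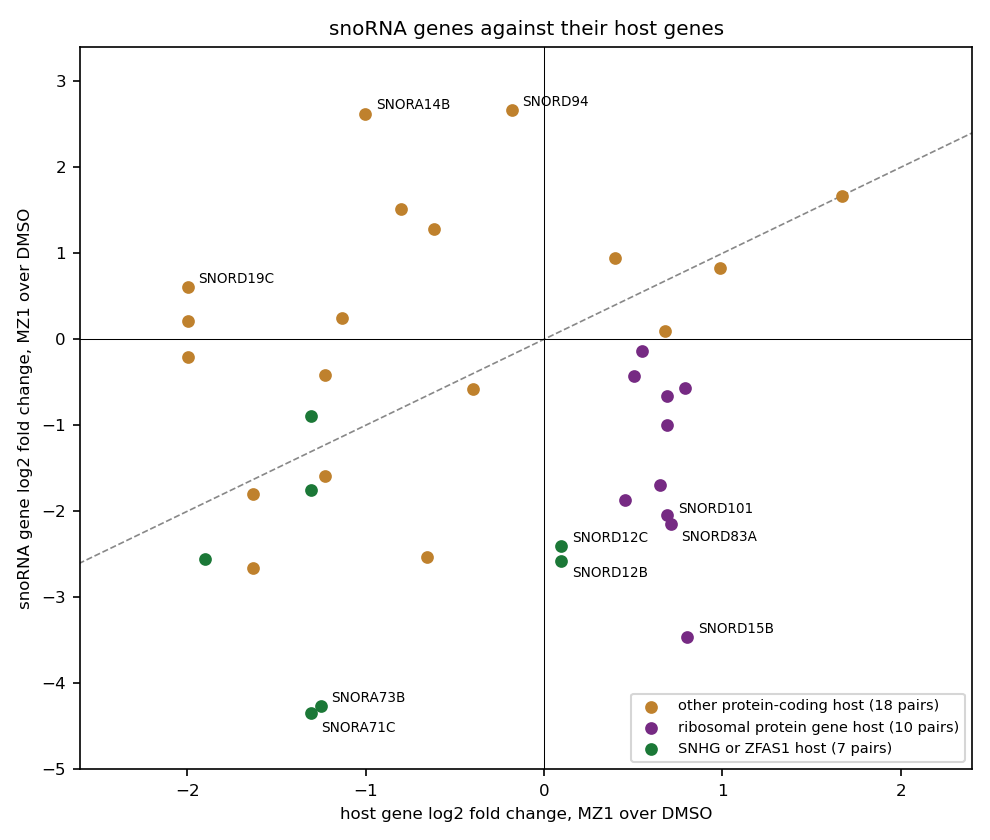
Log2 fold change, MZ1 over DMSO, of each tested snoRNA gene (vertical axis) against that of its host gene (horizontal axis) for 35 pairs, coloured by the kind of host. The dashed line marks equal change. The 10 ribosomal protein pairs lie in the lower right, host higher and snoRNA gene lower or near 0 (8 of these 10 snoRNA genes were tested through their DMSO counts alone), and SNORA14B and SNORD94 lie in the upper left.

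The proteins that make and trim snoRNA particles were read from lists. All 4 core proteins of the C/D particle were called lower with MZ1 (median log2 fold change -1.01), under each of 4 scalings. NOP56 had 180.2 and 171 CPM in MZ1 libraries and 409 and 405 CPM in DMSO libraries, a log2 fold change of -1.21. SNU13, which binds the C/D fold first, changed by -1.15, the methyltransferase FBL by -0.88 and NOP58 by -0.55. All 4 core proteins of the H/ACA particle were lower too (median -2.24), again under each scaling. GAR1 had 3.54 and 4.34 CPM in MZ1 libraries and 52.7 and 51.7 CPM in DMSO libraries, a log2 fold change of -3.73. DKC1, the pseudouridine synthase, had 40.4 and 41.8 CPM in MZ1 libraries and 234 and 235 CPM in DMSO libraries, a log2 fold change of -2.51. NHP2 changed by -1.96 and NOP10 by -1.48. These 8 falls, and the counts in the lists that follow, are to be read against the 38.5% of protein-coding genes that were called higher and the 48.8% called lower.

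Of 16 assembly and transport factors, 14 were called lower, 1 higher and 1 not called (median -1.5). TCOF1, a nucleolar protein of ribosomal RNA synthesis, changed by -3.78, the helicase RUVBL1 by -1.88 and the nucleolar chaperone NOLC1 by -1.44. ZNHIT3 was the factor called higher, at 0.31, and its call was lost under 4 alternatives. Of 18 exosome subunits and exonucleases, 14 were lower and 4 higher (median -1.03), beside 48.8% lower and 38.5% higher among protein-coding genes. EXOSC5, an exosome core subunit, had 1.13 and 1.01 CPM in MZ1 libraries and 40.0 and 38.5 CPM in DMSO libraries, a log2 fold change of -5.18. EXOSC2 changed by -2.12 and MTREX, the helicase that feeds the nuclear exosome, by -2.05. The cytoplasmic exonuclease XRN1 (1.23), the poly(A) polymerase TENT4B (1.20) and the exosome nuclease DIS3 (1.04) were higher.

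Of 11 nonsense-mediated decay genes 4 were called higher and 5 lower, near the 38.5% and 48.8% of all protein-coding genes, and with upper-quartile scaling 6 were higher and 4 lower. PNRC2 had 439 and 437 CPM in MZ1 libraries and 157 and 147 CPM in DMSO libraries, a log2 fold change of 1.52, and the helicase UPF1 (0.85) and the kinase SMG1 (0.73) rose as well. UPF2 (-1.10) and SMG5 (-0.78) fell. Of 140 tested protein-coding genes that hold a snoRNA gene, 45% were called higher and 48.6% lower, also near that background. Outside the ribosomal proteins 36 of 112 were higher and 67 lower, among them RC3H2 (1.72) and DDX39B (1.67) on the higher side and NOL11 (-3.29), WDR43 (-3.13), RANBP1 (-2.64), HSPA8 (-2.55), IARS1 (-2.28) and HSPA9 (-2.22) on the lower side. NOL11 and WDR43 are proteins of the small-subunit processome, which holds U3.

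**Figure D5:**
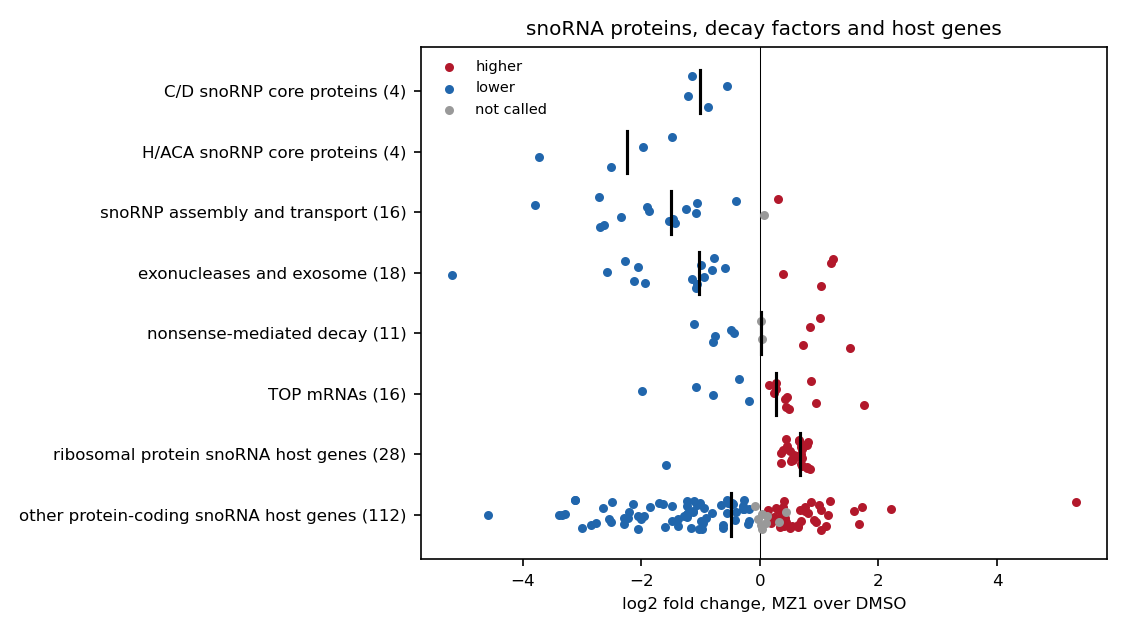
Log2 fold change, MZ1 over DMSO, of each tested gene in the lists of snoRNA particle proteins, decay factors, TOP mRNAs and protein-coding snoRNA host genes, with the number of tested genes in brackets. Points are genes, coloured by their call, and vertical bars are list medians. The 8 core particle proteins all lie left of 0 and 27 of the 28 ribosomal protein host genes lie right of it.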

How the data were processed

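RNA of 697 cells was sequenced in 2 MZ1 and 2 DMSO libraries. TRIzol was used for total RNA and the TruSeq RNA kit for libraries, per the labels' protocols. The authors deposited whole-number read counts for each Ensembl gene, per the file headers, with no normalisation. Per the submitters' processing notes, HISAT2 2.2.0 and the build hg38 were used. Counting program, gene annotation and strand setting: not given in the sources used here. Rows that name no gene numbered 0. Depth was 14246367 to 16488005 counts per library.

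Genes were kept with filterByExpr (16862 genes), scaled with TMM and tested with edgeR 4.0.16 (glmQLFit and glmQLFTest, R 4.3.3) on treatment alone, with Benjamini-Hochberg adjustment over all tested genes and calls at an adjusted p below 0.05. The analysis was also run on simulated data in which few genes changed. That run does not test the scaling or the calls where most genes change, as here. Positions, gene types, exonic lengths and the gene around each snoRNA gene came from GENCODE release 29 (GRCh38, the build hg38), and 28597 genes had a symbol in the name table. A snoRNA gene was paired with the same-strand gene that contains it, first with an SNHG gene, GAS5, ZFAS1 or DANCR, then with a protein-coding gene. Start windows came from RefSeq (GRCh38.p14), with 24 host genes matched. Summed counts were divided by TMM-scaled library sizes and carry exact 95% intervals. A gene at 0 in a group was set to 3 counts over that group.

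Replicates differed by more than sampling noise (chi-square per degree of freedom 2.17 for MZ1 and 2.44 for DMSO), and the biological coefficient of variation was 3.79%. Same-numbered libraries did not deviate together (correlation 0.014).

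Members and lists were chosen with earlier results of these data known. Values were given for the 14 host genes with the highest mean CPM, the 5 called host genes with the largest rise and the 5 with the largest fall, the 12 snoRNA genes with the highest mean CPM and, by lowest adjusted p per direction, 5 called snoRNA genes and 6 protein-coding hosts, all members of lists of 9 or fewer and 3 in each direction of longer lists. Other snoRNA and host genes with values were named as partners of these or to describe pairs, after their values were seen. Alternatives were other scalings, count filters, DESeq2 1.42.0, limma-voom (limma 3.58.1), a replicate block and leaving out each library. A few results that this rule covers are not reported here.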

Additional observations from a re-analysis of the deposited data

How the results depend on the processing

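The host counts (9 higher, 13 lower) stayed within 1.5 times under all alternatives run, and 68 of 77 named genes kept their direction and their side of the threshold under each alternative that could test them. The host median of -0.16 became 0.11 with upper-quartile scaling, where the snoRNA median became -0.30, and lay between -0.275 and 0.0327 with 1 library left out (0.0327 without DMSO replicate 2). The snoRNA median of -0.57 became 0.0121 without a count filter and 0.0488 with DESeq2, where all 160 rows entered, and lay between -0.98 and -0.41 with 1 library left out. Called snoRNA genes numbered 18 higher without a filter (main 11) and 10 lower with DESeq2 (main 17). The summed snoRNA share of unscaled library totals, a log2 ratio of -0.24, was -0.36 over members past the filter. With TMM scaling the log2 ratio of the summed snoRNA counts was -0.16. The median pair difference of -0.58 was -0.00206 over 135 pairs without a filter, and lay between -0.64 and -0.31 with 1 library left out. Of the genes not called, ZFAS1 ranged between -0.013 (without DMSO replicate 2) and 0.125 with 1 library left out, and SNORD62B between -0.304 (without DMSO replicate 1) and 0.54. Where no construction is named, the cause was not tested.

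The labels do not say whether the replicate numbers pair the libraries. With a replicate block 9 host genes were higher and 13 lower, and 11 snoRNA genes were higher and 15 lower; SNORA71B and SCARNA13 lost their call.

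Chosen after seeing the data, the class sums were recomputed without the 3 rows with most counts. The log2 ratio of rows in SNHG, ZFAS1 and DANCR hosts was then -0.72 in place of -1.81, that of rows in other protein-coding hosts 0.11 in place of 0.37 (0.64 with upper-quartile scaling), and that of rows without a host 1.23 in place of 2.15. Depth limits the snoRNA genes: 119 of 160 rows were too sparse to test, and a row of 11 counts cannot show a moderate change.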

Other observations

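Small Cajal body RNA genes, whose RNAs guide modification of spliceosomal RNAs, were also in the table. Of 14 rows only 2 could be tested and both were called higher with MZ1 after passing the count filter through the MZ1 libraries alone, SCARNA8 with 14 and 12 counts in MZ1 libraries and 5 and 4 counts in DMSO libraries, and SCARNA13 with 16 and 22 counts in MZ1 libraries and 11 and 10 counts in DMSO libraries. The SCARNA8 call was lost with DESeq2 and without any of 3 of the 4 libraries, and the SCARNA13 call under 6 alternatives. SCARNA21 had 0 and 0 counts in MZ1 libraries and 8 and 4 counts in DMSO libraries, chosen here after its values were seen. All 14 rows summed to 57 and 61 counts in MZ1 libraries and 54 and 35 counts in DMSO libraries, 1.58-fold higher (exact 95% interval 1.19 to 2.10, counting error only).

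Among the 160 snoRNA rows 22 were marked as named by an Rfam family alone in the gene annotation. Some of them, SNORD19C and SNORA80C among them, nevertheless carry a symbol of their own here. Whether the 22 are active copies was not tested. Of the 22 rows, 16 have no host and 6 lie in protein-coding genes, and SNORD18, SNORA74, SNORA72 and SNORD19C are the 4 with enough counts to test. The 22 rows summed to 123 and 98 counts in MZ1 libraries and 45 and 59 counts in DMSO libraries, 2.53-fold higher (2.0 to 3.23). By box, C/D rows summed to 613 and 581 counts in MZ1 libraries and 622 and 735 counts in DMSO libraries, a ratio of 1.05 (0.97 to 1.13), and H/ACA rows to 349 and 331 counts in MZ1 libraries and 559 and 576 counts in DMSO libraries, 1.40-fold lower (1.27 to 1.54). That fall lay in 2 rows, since without SNORA73B and SNORA71C, left out after their values were seen, the H/ACA rows summed to 342 and 325 counts in MZ1 libraries and 410 and 411 counts in DMSO libraries, a ratio of 0.967. The exact two-sided permutation p of the H/ACA share was 0.333, the smallest possible.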
